A study of Mus musculus with 6 samples.

Results

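The small leucine-rich proteoglycans are a family of secreted proteins of the extracellular matrix, and 8 of them were followed here in tdT+ cells sorted from the mouse cerebral cortex: decorin (Dcn), biglycan (Bgn), asporin (Aspn), lumican (Lum), fibromodulin (Fmod), Prelp, osteomodulin (Omd) and osteoglycin (Ogn). They were chosen by name out of 23494 genes listed in the deposited single-cell tables, and all 8 were listed in each of the 3 tables. The question was how the transcripts of these genes were distributed between the fibroblasts (cluster 5 of the Tbx18 line) and a pair of clusters that the study named as pericytes, Tbx18 cluster 4 and NG2 cluster 8.

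The cells came from mice aged 3 to 4 months, of the NG2 line (NG2-Cre-ERT2/Ai14-flx) or of the Tbx18 line (Tbx18-CreERT2/Ai14-flx), in which tamoxifen switches on the red protein tdT in cells that express the driver gene. Each line gave 1 naive library (no injury), 1 library after physical injury (saline injected into the brain) and 1 library after ischemic injury (ET-1/L-NAME, agents that constrict vessels). The injured mice received tamoxifen 7 days before injury and were collected 3 days after it. Animals were pooled and live tdT+/DAPI- cells were sorted, so the sort decides which cells entered a library. The driver genes are not private to pericytes: NG2 is also made by oligodendrocyte precursors, and both are made by smooth muscle cells of vessels. With 1 library in each of the 6 groups there is no replicate, so no test was possible and none is given.

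Small leucine-rich proteoglycans share a curved core of leucine-rich repeats that binds collagen fibrils and sets their diameter and spacing. Decorin, biglycan and asporin belong to class I, whose members mostly carry chondroitin or dermatan sulfate chains (asporin usually carries none). Lumican, fibromodulin, Prelp and osteomodulin belong to class II, several of which carry keratan sulfate, and osteoglycin belongs to class III. Beyond collagen, decorin binds TGF-beta and the receptor Egfr, and free biglycan is sensed by Toll-like receptors. In the brain, where fibrillar collagen is scarce, fibroblasts of the meninges and of the perivascular space are known for decorin and lumican.

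Several of the genes are neighbors in the genome. In the RefSeq annotation of GRCm38.p6, the build to which mm10 corresponds, Aspn (chromosome 13, 49544443 to 49567565), Omd (49582462 to 49592612) and Ogn (49608015 to 49624501) lie in a row, with 14.9 kb between Aspn and Omd and 15.4 kb between Omd and Ogn. Dcn (chromosome 10, 97479500 to 97518163) lies 47.3 kb from Lum (97565501 to 97572703). Prelp (chromosome 1, 133910304 to 133930102) lies 107 kb from Fmod (134037254 to 134048280), and Bgn is on chromosome X (73483601 to 73495936). The 250 bases before the starts of the chromosome 13 neighbors are shown because these adjacent genes had unlike levels in the clusters compared below. They are the plus strand of RefSeq GRCm38.p6 at chr13:49544193-49544442 (Aspn), chr13:49582212-49582461 (Omd) and chr13:49607765-49608014 (Ogn). Capitals mark TATAAA or GGAATG on either strand (TTTATA and CATTCC when read on the other strand).
Aspn: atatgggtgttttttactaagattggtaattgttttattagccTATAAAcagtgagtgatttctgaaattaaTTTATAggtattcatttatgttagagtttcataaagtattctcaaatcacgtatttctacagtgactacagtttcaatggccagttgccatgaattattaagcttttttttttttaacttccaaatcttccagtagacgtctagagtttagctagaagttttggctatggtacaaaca
Omd: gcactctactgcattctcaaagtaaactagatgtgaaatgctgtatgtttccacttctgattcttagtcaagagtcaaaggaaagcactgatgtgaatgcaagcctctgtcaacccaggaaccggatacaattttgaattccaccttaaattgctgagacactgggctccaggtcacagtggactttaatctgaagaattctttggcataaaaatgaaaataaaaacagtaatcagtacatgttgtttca
Ogn: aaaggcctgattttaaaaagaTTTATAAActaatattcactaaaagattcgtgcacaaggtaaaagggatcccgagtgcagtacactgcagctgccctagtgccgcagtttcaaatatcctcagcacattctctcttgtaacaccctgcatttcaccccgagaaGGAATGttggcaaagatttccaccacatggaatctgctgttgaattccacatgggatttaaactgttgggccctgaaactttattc
Aspn had TATAAA from 207 to 202 bases before its start and, on the other strand, from 178 to 173 bases before it. Ogn had TATAAA from 227 to 222 bases before its start, overlapping a match on the other strand from 229 to 224, and GGAATG from 86 to 81 bases before it. No match to either motif was found in the Omd window. Among 32851 windows of the same length before RefSeq starts, 12.4% held TATAAA and 12.6% held GGAATG. The AP-1 motif TGANTCA, found in 6.75% of these windows, was in none of the 6 members that had a row in the table. Dcn and Lum had no row. These matches describe letters only.

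The deposited values were UMI counts, in which each unit stands for 1 captured transcript, so levels of different genes can be set side by side without correction for length. The 6 libraries held 686 to 4306 cells and 3153996 to 54276245 UMIs, with a median of 2806 to 9232 UMIs per cell. Cell barcodes shared between pairs of libraries numbered 0 to 5. For each cluster and library the UMIs of all its cells were added up and scaled to CPM (counts per 1000000 UMIs), with 95% exact Poisson intervals. Percentages of cells have 95% exact Clopper-Pearson intervals. Neither interval holds the spread between animals: they describe counting error alone. The clusters had been formed on expression that includes these genes, so differences between clusters are descriptions. The study also listed Dcn, beside Col1a1 and Col15a1, as a marker of the cluster it named fibroblasts. High Dcn in Tbx18 cluster 5 is therefore part of that name.

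Tbx18 cluster 5 held 5 naive, 116 physical injury and 10 ischemic injury cells. Their median depths were 3906, 7388.5 and 9044.5 UMIs. Of 8 fibroblast markers that are not members of the family (Col1a1, Col1a2, Col3a1, Col15a1, Pdgfra, Slc6a13, Fbln1 and Dpt), 7 reached 50 CPM, and Col15a1, Slc6a13 and Pdgfra were among its 10 most specific genes, so the cluster is called fibroblast-like here. Their summed level was 6154 to 8585 CPM over the 3 libraries. An arachnoid and meningeal fibroblast list (Crabp2, Aldh1a2, Slc47a1, Dpp4, Mgp, Wnt6 and Slc22a6) summed to 1026, 1469 and 929 CPM in the naive, physical injury and ischemic injury cells. Of its 7 genes, 6 had counts in the cluster and Slc22a6 was among the 10 most specific, while Slc47a1, a marker of the arachnoid barrier, had 0 counts in each library. The pericyte list (Vtn, Abcc9, Kcnj8, Atp13a5, Rgs5, Pdgfrb, Higd1b and Ndufa4l2) summed to 9969 CPM in the 5 naive cells and to 3534 and 3583 CPM in the injured libraries. In the naive cells it was thus above the fibroblast markers (6154 CPM), so the fibroblast-like name holds less well for those 5 cells.

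Tbx18 cluster 4 (157 naive, 349 physical injury and 143 ischemic injury cells) had few pericyte transcripts in the injured libraries, against its pericyte name. The study itself subclustered these cells and reported no vascular-genic pericyte subcluster after either injury, but smooth muscle cells, microglia and fibroblasts in its place. Its pericyte list summed to 16100 CPM in the naive cells but to 133 and 26.1 CPM after physical and ischemic injury, where Abcc9 had 0 counts. The arachnoid and meningeal fibroblast list summed to 2242, 4688 and 3721 CPM, with 3 of its 7 genes at 50 CPM over all libraries. This sum does not by itself set the cluster apart. It was 4899 CPM in ischemic injury cells of Tbx18 cluster 1, a smooth muscle cluster, where 2 of the 7 genes had counts. In NG2 cluster 8, Mgp alone was at 1324, 3347 and 4573 CPM in naive, physical and ischemic injury cells. The leading genes of Tbx18 cluster 4 were Prg4, Slc4a10, Col25a1 and Slc47a1. The microglia and myeloid list (C1qa, C1qb, C1qc, Csf1r, Cd74 and Lyz2) summed to 54.9, 1481 and 1872 CPM. The smooth muscle list (Acta2, Myh11, Tagln, Cnn1 and Mylk) was higher, at 7236, 4447 and 5500.5 CPM. A perivascular and pial fibroblast list (Ngfr, Col15a1, Lama1, S100a6 and Cxcl12) was at 721, 4022 and 6073 CPM. Within it, Lama1 had 0 counts in both injured libraries and Col15a1 had 0 counts in the ischemic injury cells. This sum was also 2560, 2282 and 1752 CPM in the naive, physical and ischemic injury cells of Tbx18 cluster 0, whose leading genes were hemoglobin and endothelial genes. The endothelial list (Cldn5, Flt1, Ly6c1, Pecam1 and Cdh5) was at 2238 CPM in the naive cells and at 268 and 240 CPM after injury. The naive cells were also shallow, with a median of 1724 UMIs against 6756 and 8461 in the injured libraries. The 8 fibroblast markers used for the fibroblast-like cluster summed to 505, 1414 and 3259 CPM in the naive, physical and ischemic injury cells. After injury this sum was above the pericyte list, and in each library it was below that of the fibroblast-like cluster. The ischemic injury sum includes 1188 Col1a1 UMIs from 1 cell, without which Col1a1 was at 626 CPM there. The cluster is therefore given by number only.

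NG2 cluster 8 (177 naive, 81 physical injury and 240 ischemic injury cells) had its pericyte list at 24105 to 26593 CPM in all 3 libraries. Its most specific genes were led by Il11, Ccl19, Ccl11 and Timp1, and Dcn itself was among the leading 10, so this cluster is also given by number. Its fibroblast list, of which 7 genes were listed in the NG2 table, summed to 423 to 822 CPM, and Dpt was the gene with no row there. Median depths were 4026, 7733 and 8444 UMIs in naive, physical and ischemic injury cells.

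Across all clusters, the family was highest where fibroblast, pericyte or smooth muscle markers were high. The 8 genes together reached 8058 CPM (7881 to 8237) in fibroblast-like Tbx18 cluster 5, 1139 CPM (1108 to 1172) in Tbx18 cluster 4 and 1343 CPM (1307 to 1379) in NG2 cluster 8, with the libraries of each line summed. In the remaining clusters with high pericyte or smooth muscle markers (NG2 clusters 0 to 3 and Tbx18 clusters 1 and 2) the sum was 1015 to 1561 CPM. NG2 cluster 10, 110 shallow cells (median 2253 UMIs) that also had all 8 pericyte markers at 50 CPM or more, was lower at 600 CPM, with 941, 435 and 341 CPM in its naive, physical injury and ischemic injury libraries. By contrast it was 7.71 CPM in the oligodendrocyte cluster of the NG2 line, 10.8 CPM in its microglial cluster and 18.9 CPM in Tbx18 cluster 0, which was led by hemoglobin and endothelial genes. NG2 cluster 5, also led by endothelial genes, was at 115 CPM. Tbx18 cluster 3, whose highest list was microglia and myeloid, was at 1047 CPM in its 76 naive cells, in which the pericyte list was at 21279 CPM, but at 19.1 and 7.26 CPM after physical and ischemic injury.

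**Figure D1:**
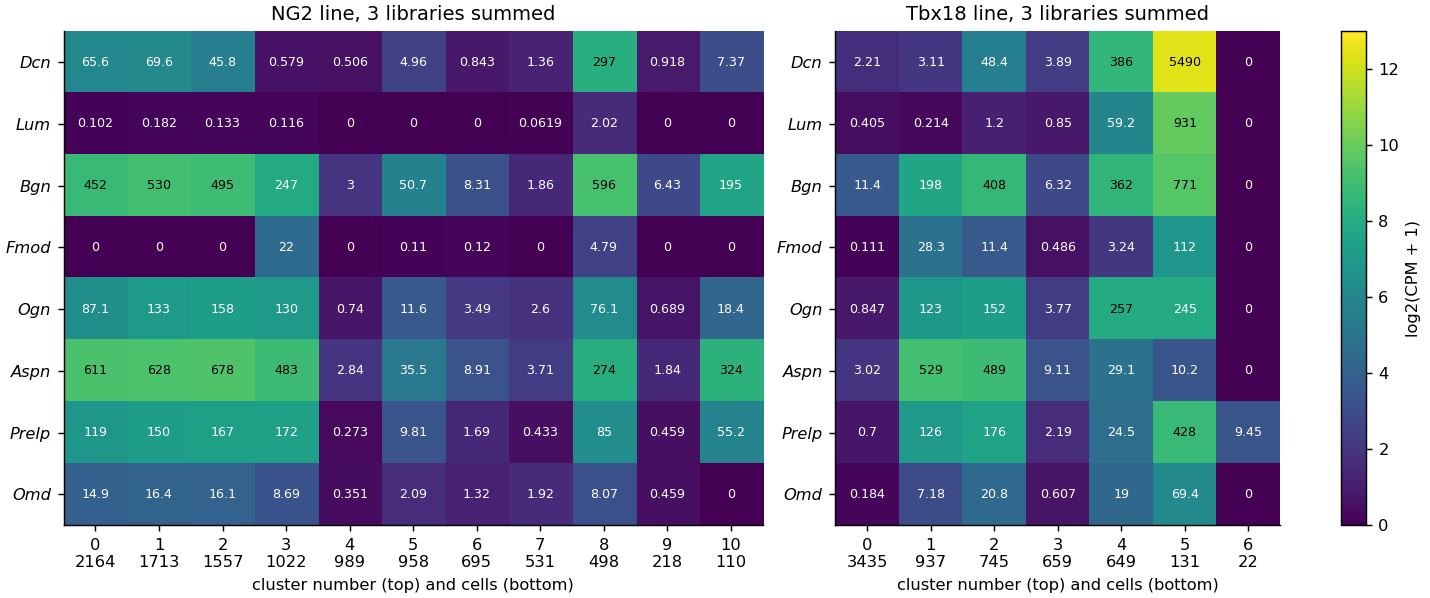
Heat map of log2(CPM + 1) of the 8 genes (rows) in each cluster of the NG2 and Tbx18 lines (columns), with counts summed over the 3 libraries of a line. Dcn and Lum are highest in Tbx18 cluster 5 (5490 and 931 CPM), whereas Aspn is high in NG2 clusters 0 to 3 and Tbx18 clusters 1 and 2 (483 to 678 CPM), lower in NG2 cluster 10 (324 CPM) and low in Tbx18 cluster 5 (10.2 CPM).

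The same sum covered unlike mixtures of members. In NG2 clusters 0, 1 and 2, which had the pericyte markers, Aspn was the most abundant member at 611, 628 and 678 CPM, followed by Bgn at 452, 530 and 495 CPM. Dcn was at 65.6, 69.6 and 45.8 CPM there, Fmod had 0 counts in every library and Lum stayed at or below 0.182 CPM. The smooth muscle clusters of both lines, NG2 cluster 3 and Tbx18 cluster 1, had Aspn at 483 and 529 CPM and Fmod at 22 and 28.3 CPM, with Dcn at 0.579 and 3.11 CPM. In Tbx18 cluster 5 the order was Dcn (5490 CPM), Lum (931), Bgn (771), Prelp (428), Ogn (245), Fmod (112), Omd (69.4) and Aspn (10.2). Of the neighbors in that order, the ranges over the 3 libraries overlapped between Prelp and Ogn and between Fmod and Omd, and Omd and Aspn met at 64.1 CPM in the naive cells.

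Between clusters, 4 of the 7 members that reached 50 CPM on either side (Dcn, Lum, Fmod and Prelp) were at least 4-fold higher in Tbx18 cluster 5 than in Tbx18 cluster 4, and 0 were at least 4-fold lower. Of all 4725 genes tested the same way, 11.6% were higher and 7.62% lower by this rule. Aspn missed the minimum of 50 CPM. The median log2 ratio over the 8 genes was 2.82, against 0.55 over all genes tested, and the summed level had a log2 ratio of 2.82 (2.77 to 2.87). Dcn held 5381 of the 7898 member UMIs of cluster 5, so ratios of its summed level rest largely on this 1 gene. TMM scaling, which aligns the typical gene, shifted the median of all genes by -0.38, so each ratio against cluster 4 can be read against a typical gene at 0.55. Taken library by library, 3 of 7 naive, 4 of 7 physical injury and 5 of 7 ischemic injury members passed the rule upward, beside 16.6%, 12% and 29.3% of all genes. None passed it downward, where 13.9%, 7.73% and 12.4% of all genes did. The naive count rests on 5 cells of cluster 5 and includes Omd at 2 against 4 UMIs. Its log2 ratio of 2.22 (-1.24 to 5.03) had an interval that includes no difference.

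Against NG2 cluster 8, 5 of 8 members (Dcn, Lum, Fmod, Prelp and Omd) were at least 4-fold higher in Tbx18 cluster 5, beside 9.01% of 4884 genes, and Aspn was at least 4-fold lower, beside 6.31% of them. The median log2 ratio was 2.64 over the 8 genes and 0.07 over all genes tested, and the log2 ratio of the summed level was 2.59 (2.53 to 2.64). TMM scaling shifted the median of all genes by -0.20. By condition, 2 of 7 members in the naive libraries, 5 of 8 after physical injury and 6 of 8 after ischemic injury passed the rule upward, beside 15%, 9.32% and 14.3% of all genes. Aspn was lower in each of the 3 conditions, where 14.3%, 7.03% and 11% of all genes were. The lines differ in genotype and in library, so line, sort and cluster cannot be told apart in this contrast.

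**Figure D2:**
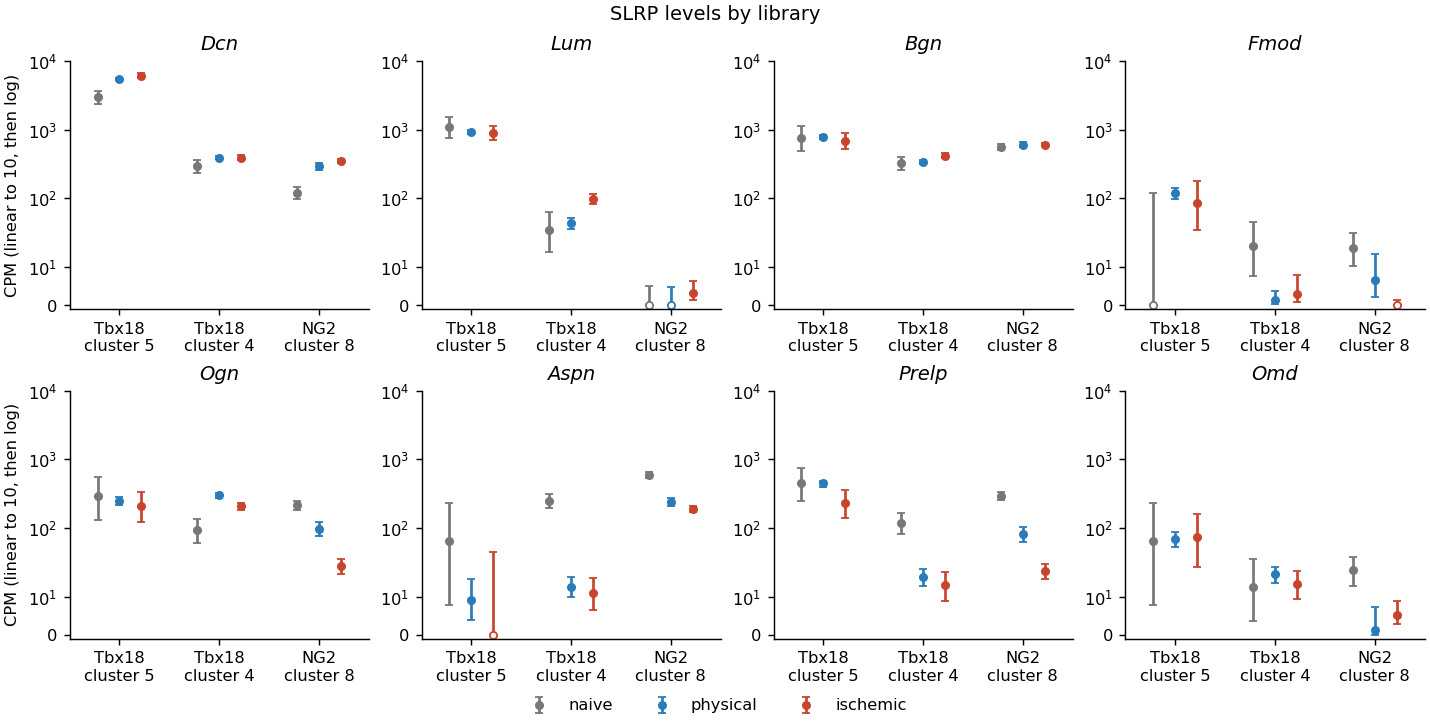
CPM of each gene (1 panel per gene) in the naive, physical injury and ischemic injury libraries of Tbx18 cluster 5, Tbx18 cluster 4 and NG2 cluster 8, with 95% exact Poisson intervals for counting error. The axis is linear up to 10 CPM and logarithmic above, and open symbols have 0 counts. Dcn and Lum in Tbx18 cluster 5 sit above both other clusters in all 3 libraries, and Aspn in NG2 cluster 8 sits above Tbx18 cluster 5 in all 3.

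Among the class I genes, decorin, which binds collagen and TGF-beta, was the most abundant member in Tbx18 cluster 5. Dcn was at 2981 CPM (2406 to 3652) in its naive, 5521 CPM (5366 to 5680) in its physical injury and 6115 CPM (5590 to 6675) in its ischemic injury cells. In Tbx18 cluster 4 it was at 292, 393 and 391 CPM, and in NG2 cluster 8 at 120, 292 and 352 CPM. The lowest library of cluster 5 was thus above the highest library of either other cluster, while the ranges of those 2 clusters overlapped. The pooled level was 14.2-fold that of Tbx18 cluster 4 (log2 ratio 3.83, 3.75 to 3.91) and 18.5-fold that of NG2 cluster 8 (log2 ratio 4.21, 4.12 to 4.3). In the physical injury library 111 of 116 cells of cluster 5 (95.7%, 90.2 to 98.6) had a Dcn UMI. In Tbx18 cluster 0, of similar depth (median 6701.5 UMIs), 1.57% of cells in the same library had one.

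Dcn in the other clusters was carried by part of the cells. In Tbx18 cluster 4, 33.8%, 46.1% and 49.7% of the naive, physical injury and ischemic injury cells had a Dcn UMI, and in NG2 cluster 8 the shares were 23.7%, 40.7% and 38.8%. With each cell thinned to 1000 UMIs, which sets depths equal, the shares were 27.0%, 19.3% and 26.4% in Tbx18 cluster 4 and 8.62%, 13.8% and 16% in NG2 cluster 8. The 12 of 116 cells with the most Dcn UMIs held 34.6% of the Dcn UMIs in Tbx18 cluster 5 after physical injury, while the top 35 of 349 cells held 63.9% in Tbx18 cluster 4 and the top 9 of 81 cells 81.1% in NG2 cluster 8 after the same injury. Dcn counts were therefore spread over most cells in the fibroblast-like cluster and concentrated in fewer cells in the others.

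Within Tbx18 cluster 4, the cells without a Dcn UMI carried the myeloid genes. After physical injury, Lyz2 was at 1045 CPM and C1qa at 409 CPM in the 188 cells without Dcn, and at 9.17 and 2.62 CPM in the 161 cells with it. After ischemic injury, Lyz2 was at 1867 CPM in 72 cells without and 9.68 CPM in 71 cells with Dcn. Cells with a Dcn UMI were also deeper (median 8508 against 5016 UMIs after physical injury), and the part of depth in this split was not tested. In the same physical injury cells Lum was at 67.5 CPM with and 12.5 CPM without Dcn, and Bgn at 441 and 212 CPM. With the injured libraries alone, and cluster 4 cells that had a UMI of C1qa, C1qb, C1qc, Csf1r or Lyz2 left out, the log2 ratio of Dcn between clusters 5 and 4 was 3.71 (3.62 to 3.8) and that of the summed level 2.74.

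Biglycan, a class I proteoglycan that carries a pair of chains, was the member closest in level between Tbx18 cluster 5 and NG2 cluster 8. Bgn was at 769, 779 and 685 CPM in naive, physical injury and ischemic injury cells of Tbx18 cluster 5. It was at 323, 340 and 417 CPM in Tbx18 cluster 4 and at 568, 606 and 601 CPM in NG2 cluster 8. In plain CPM all 3 libraries of cluster 5 were above all libraries of the other clusters. The TMM factors of the naive, physical injury and ischemic injury cells were 1.54, 1.06 and 1.31 in cluster 5. In NG2 cluster 8 they were 1.03, 0.961 and 0.909. Under this scaling the order did not hold for the naive and ischemic injury cells of cluster 5. The pooled log2 ratio was 1.09 (0.96 to 1.22) against Tbx18 cluster 4 and 0.37 (0.25 to 0.49) against NG2 cluster 8, short of the 4-fold rule. Against NG2 cluster 8 it was 0.44 (-0.22 to 1.03) in naive and 0.19 (-0.22 to 0.57) in ischemic injury cells. Both of these intervals include no difference, with 24 and 56 UMIs in cluster 5. Of the cells of NG2 cluster 8, 87.0%, 93.8% and 91.2% had a Bgn UMI, and in NG2 cluster 5, led by the endothelial genes Cldn5 and Ly6c1, 20.8%, 18.1% and 19.9% did.

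Asporin, the class I member that usually lacks a chain and that can bind collagen and TGF-beta, went the other way. Aspn was at 588 CPM (534 to 646), 241 CPM (207 to 278) and 190 CPM (173 to 208) in naive, physical injury and ischemic injury cells of NG2 cluster 8. In Tbx18 cluster 4 it was at 251, 13.9 and 11.5 CPM. In Tbx18 cluster 5 it had 2 UMIs in the naive cells (64.1 CPM), 8 UMIs in 2 of 116 physical injury cells (9.22 CPM) and 0 UMIs in the ischemic injury cells, where a count of 0 allows up to 36.7 CPM. Every library of NG2 cluster 8 was above every library of Tbx18 cluster 5. Pooled, Aspn was 26.8-fold lower in Tbx18 cluster 5 than in NG2 cluster 8 (log2 ratio -4.75, -5.81 to -3.86). Against Tbx18 cluster 4 its log2 ratio was -1.51 (-2.60 to -0.58), and that cluster's Aspn came mostly from the naive cells, in which the pericyte list was at 16100 CPM.

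Dcn and Aspn were next counted cell by cell, in cells thinned to 1000 UMIs. Among 113 physical injury cells of Tbx18 cluster 5, 99 had a Dcn UMI and 0 had an Aspn UMI, so whether both occur in the same cell could not be read there. In NG2 cluster 8, 4.02% of 174 naive cells, 6.25% of 80 physical injury cells and 0.422% of 237 ischemic injury cells had both, where the product of the single shares was 3.42%, 2.92% and 2.57%. The naive and physical injury values, at 7 and 5 cells, were above this product, but their intervals (1.63 to 8.11% and 2.06 to 14.0%) include it. The ischemic injury value, at 1 cell, was below it, with an interval of 0.0107 to 2.33%. Cells with Aspn only made up 35.6%, 15% and 15.6% of these, and cells with Dcn only 4.6%, 7.50% and 15.6%. In unthinned ischemic injury cells of this cluster, Aspn was at 110 CPM in the 93 cells with a Dcn UMI and at 261 CPM in the 147 cells without. In naive cells the corresponding levels were 613 and 578 CPM, and after physical injury 249 and 234 CPM, so the lower Aspn level in cells with Dcn was seen in the ischemic injury library alone.

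**Figure D3:**
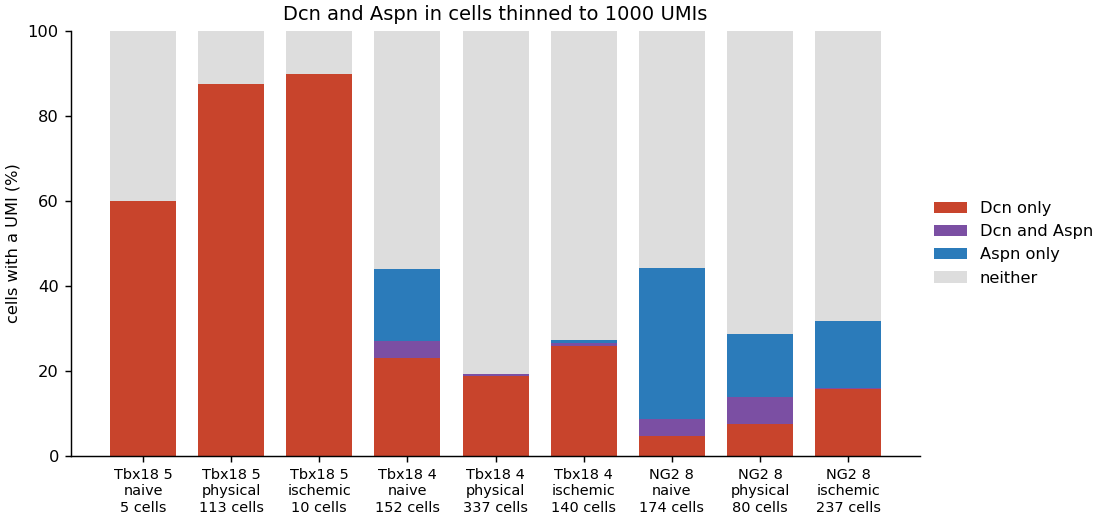
Share of cells (percent) with UMIs of both Dcn and Aspn, of Dcn only, of Aspn only or of neither, after thinning to 1000 UMIs, in each library of the 3 clusters. Of the physical injury cells of Tbx18 cluster 5, 87.6% have Dcn only and 0 have Aspn, whereas 35.6% of the naive cells of NG2 cluster 8 have Aspn only.

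Among the class II genes, lumican, which like decorin organizes collagen fibrils and is abundant in the cornea, was high in Tbx18 cluster 5, lower in Tbx18 cluster 4 and at or near 0 in NG2 cluster 8. Lum was at 1090 CPM (755 to 1523), 929 CPM (866 to 996) and 893 CPM (700 to 1123) in naive, physical injury and ischemic injury cells of Tbx18 cluster 5. In Tbx18 cluster 4 it was at 34.3, 43.2 and 98.3 CPM. In NG2 cluster 8 it had 0 counts in the naive and physical injury libraries, which allow up to 4.06 and 3.95 CPM, and 8 UMIs in 5 of 240 ischemic injury cells (3.24 CPM). The ranges of the 3 clusters over their libraries did not overlap. Lum was 15.7-fold higher in cluster 5 than in Tbx18 cluster 4 (log2 ratio 3.98, 3.77 to 4.18, or 4.37 without 1 Lum-rich cell of cluster 4 described next). With 3 counts put in place of 0, it was 269-fold and 235-fold higher than in the naive and physical injury libraries of NG2 cluster 8. These 2 values leave out the counting error of cluster 5, whose naive cells had 34 Lum UMIs. After physical injury 88.8% of the cells of Tbx18 cluster 5 had a Lum UMI, 51.3% after thinning, compared with 0.391% in Tbx18 cluster 0 before thinning.

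Within Tbx18 cluster 4 itself, Lum was at 98.3 CPM after ischemic and 43.2 CPM after physical injury, a log2 ratio of 1.19 (0.81 to 1.56) that rested on 1 cell. That cell held 62 of the 128 Lum UMIs of the ischemic injury cells, of which 24 had any. It also held 61 Dcn UMIs and 1188 UMIs of the type I collagen gene Col1a1. Without it, in a calculation added after seeing the data, Lum was at 51.4 CPM and the log2 ratio was 0.25 (-0.21 to 0.70), an interval that includes no difference.

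Prelp, a heparin-binding member found in basement membranes, was found in the fibroblast-like cluster, in pericyte clusters and in smooth muscle Tbx18 cluster 1. In Tbx18 cluster 1 Prelp was at 126 CPM with the libraries summed, and 63.6% of the cells had a UMI of it. Over all libraries Prelp was at 119 to 167 CPM in NG2 clusters 0, 1 and 2 and at 176 CPM in Tbx18 cluster 2. The naive, physical injury and ischemic injury levels of Tbx18 cluster 2 were 159, 188 and 201 CPM. Prelp was at 449, 446 and 232 CPM in the naive, physical injury and ischemic injury cells of Tbx18 cluster 5. It was at 117, 19.4 and 14.6 CPM in Tbx18 cluster 4 and at 294, 81.6 and 23.5 CPM in NG2 cluster 8. Cluster 5 was the highest of the 3 in the naive and both injured conditions, but its ischemic injury level of 232 CPM (140 to 363) lay below the naive level of NG2 cluster 8. Pooled, Prelp was 17.5-fold higher in cluster 5 than in Tbx18 cluster 4 (log2 ratio 4.12, 3.81 to 4.44) and 5.04-fold higher than in NG2 cluster 8 (log2 ratio 2.33, 2.12 to 2.55). In naive cells alone the latter ratio was 0.61 (-0.28 to 1.39) on the log2 scale, an interval that includes no difference.

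Omd, a class II member best known from bone, was low everywhere. Its highest levels were in Tbx18 cluster 5, at 64.1 CPM (2 UMIs), 69.2 CPM (52.8 to 89.1) and 73.4 CPM (6 UMIs) in the naive, physical injury and ischemic injury cells. Tbx18 cluster 4 had 13.7, 21.2 and 15.4 CPM, and NG2 cluster 8 had 24.3, 1.32 and 5.27 CPM. The libraries of cluster 5 were above those of both other clusters, although 2 of its 3 levels rest on 6 UMIs or fewer. The pooled log2 ratios were 1.87 (1.38 to 2.35) and 3.10 (2.48 to 3.76).

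Fibromodulin, which binds collagen at a region that lumican also uses, was found in a minority of fibroblast-like cells. Fmod had 103 UMIs in 26 of 116 physical injury cells of Tbx18 cluster 5 (119 CPM, 22.4% of cells), 7 UMIs in 1 of 10 ischemic injury cells (85.6 CPM) and 0 counts in the 5 naive cells, which allow up to 96.2 CPM. In Tbx18 cluster 4 it was at 20.6, 1.46 and 3.07 CPM, and in NG2 cluster 8 at 18.9, 6.58 and 0 CPM. A similar share of cells, 20.6% of 827, had a Fmod UMI in smooth muscle Tbx18 cluster 1 after physical injury. Those cells were deeper (median 10561 UMIs) and had Fmod at 29.4 CPM. The 12 physical injury cells of cluster 5 with the most Fmod UMIs held 80.6% of its Fmod UMIs, so the level of the cluster rests on few cells and on 1 library. The pooled log2 ratio was 5.11 (4.3 to 6.03) against Tbx18 cluster 4 and 4.55 (3.84 to 5.34) against NG2 cluster 8.

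The 26 cells with Fmod differed from the other 90 fibroblast-like cells of that library in some members only. Ogn was at 516 CPM (414 to 636) in cells with Fmod, 19 of which had it, and at 181 CPM (151 to 215) in cells without, 42 of which had it. Omd was at 123 CPM (76.2 to 188) with and 56.0 CPM (39.8 to 76.5) without Fmod. These intervals were far apart for Ogn and overlapped narrowly for Omd, but they leave out the spread between cells. Of all 116 cells, the 12 richest in each gene held 107 of the 214 Ogn UMIs and 42 of the 60 Omd UMIs. Whether the differences exceed that spread was not tested. Dcn was at 5794 and 5454 CPM, Lum at 1009 and 910 CPM, Bgn at 780 and 779 CPM and Prelp at 440 and 448 CPM. Outside the family, the basement membrane collagen Col15a1 was at 475 CPM with and 942 CPM without Fmod and Vtn at 1654 and 3435 CPM, while the fibroblast receptor Pdgfra was at 839 and 868 CPM. Median depth was 6068.5 UMIs with and 7705 UMIs without Fmod.

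**Figure D4:**
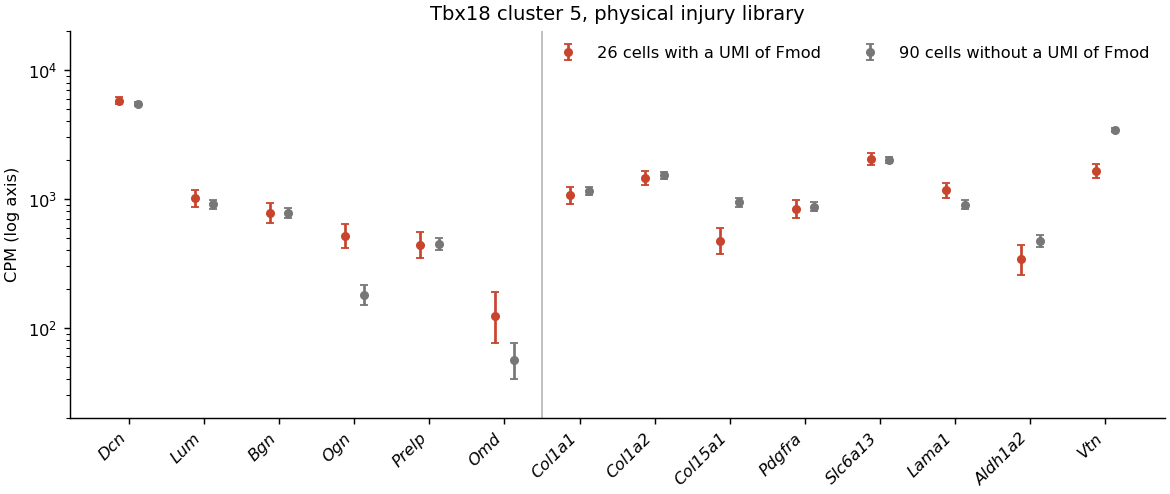
CPM of Dcn, Lum, Bgn, Ogn, Prelp and Omd and of fibroblast and pericyte markers in physical injury cells of Tbx18 cluster 5 with a Fmod UMI (26 cells) and without (90 cells), with 95% exact Poisson intervals for counting error. Fmod and Aspn are not shown. Ogn is at 516 against 181 CPM, whereas Dcn, Lum, Bgn and Prelp lie close together.

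Osteoglycin, the class III member, did not separate the fibroblast-like cluster from Tbx18 cluster 4 when the libraries were pooled. Ogn was at 288, 247 and 208 CPM in the naive, physical injury and ischemic injury cells of Tbx18 cluster 5. It was at 92.7 CPM (61.1 to 135), 298 CPM (278 to 320) and 207 CPM (183 to 233) in Tbx18 cluster 4, and at 215 CPM (183 to 251), 97.4 CPM (76.5 to 122) and 28 CPM (21.8 to 35.4) in NG2 cluster 8. The libraries of both Tbx18 clusters overlapped, and the pooled log2 ratio was -0.07 (-0.28 to 0.13). By library it was 1.64 (0.36 to 2.77) in naive cells, on 9 and 27 UMIs, and -0.27 (-0.50 to -0.06) after physical injury. After ischemic injury it was 0.01 (-0.79 to 0.72). The ratio to NG2 cluster 8 was 1.69 (1.43 to 1.93), short of the rule when pooled and past it in the ischemic injury libraries alone (7.44-fold, 4.10 to 12.8). The chromosome 13 neighbors whose upstream bases are printed above were thus unlike one another in Tbx18 cluster 5 relative to NG2 cluster 8, with Aspn lower, Omd higher and Ogn between them.

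The injury comparisons within a cluster share 1 naive library per line and rest on 1 library each. In NG2 cluster 8, 0 of 5 members tested were past 4-fold after physical injury, beside 0.873% of 4354 genes higher and 0.459% lower. After ischemic injury 0 of 5 were higher (0.875% of 4344 genes) and 2 were lower, Ogn and Prelp (1.59% of genes). The members went in different directions. Dcn had a log2 ratio to naive of 1.28 (0.92 to 1.65) after physical injury, which was 0.77 (0.38 to 1.16) without 1 cell that held 70 of the 222 Dcn UMIs, and 1.55 (1.23 to 1.88) after ischemic injury, whereas Aspn had -1.29 (-1.55 to -1.04) and -1.63 (-1.82 to -1.44).

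The other members of this cluster followed neither Dcn nor each other in size. Prelp had log2 ratios of -1.85 (-2.28 to -1.43) and -3.64 (-4.09 to -3.22), and Ogn of -1.14 (-1.56 to -0.74) and -2.94 (-3.37 to -2.53), after physical and ischemic injury. Bgn, at 0.09 (-0.10 to 0.29) and 0.08 (-0.08 to 0.24), had intervals that included no difference. With cells thinned to equal depth, the share of cells with Prelp was 24.7% naive, 10.0% after physical and 2.11% after ischemic injury. The share with Ogn was 17.8%, 10.0% and 3.38%, and that with Bgn 45.4%, 46.2% and 43.9%. In the pericyte clusters 0, 1 and 2 of the same libraries, Prelp after ischemic injury was at 100, 101 and 135 CPM against 131, 166 and 181 CPM in naive cells. Ogn there was at 80.1, 122 and 118 CPM against 75.7, 126 and 143 CPM. The wide span of Prelp and Ogn was thus not seen in these 3 clusters, though the difference between clusters was not tested. In cluster 8 the pericyte list varied little (24105 to 26593 CPM) and the smooth muscle list summed to 1092, 3935 and 1966 CPM in naive, physical and ischemic injury cells. The part of the smooth muscle genes and of depth in these differences was not tested.

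Between ischemic and physical injury, no member of NG2 cluster 8 was past 4-fold (0.25% of 4004 genes were higher and 0.275% lower), and the log2 ratio of the summed level was -0.14 (-0.24 to -0.04). Ogn and Prelp were lower after ischemic injury, each with a log2 ratio of -1.80 (-2.30 to -1.31 and -2.34 to -1.26), and Dcn was at 0.27 (0.05 to 0.49), or at 0.78 (0.53 to 1.04) without the same Dcn-rich cell of the physical injury library.

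In Tbx18 cluster 4, Aspn and Prelp were at least 4-fold lower than naive in both injured libraries, 2 of 5 members tested after physical and 2 of 6 after ischemic injury. Of all genes, 12.6% and 18.4% were lower by this rule and 6.26% and 6.2% higher, so a large part of the cluster's profile differed. The naive cells of the cluster had the pericyte list at 16100 CPM against 133 and 26.1 CPM, so cell identity and injury cannot be told apart there. Aspn was 18.0-fold and 21.8-fold lower and Prelp 6.02-fold and 8-fold lower. Ogn was higher, with log2 ratios of 1.69 (1.13 to 2.30) and 1.16 (0.58 to 1.78), and Dcn was at 0.43 (0.11 to 0.77) and 0.42 (0.09 to 0.77). TMM scaling shifted the median of all genes in these comparisons by 0.36 and 0.55. In plain CPM the summed level was nearly equal in the 3 libraries, at 1143, 1131 and 1157 CPM, with lower Aspn and Prelp beside higher Dcn and Ogn. The TMM factors of these naive, physical injury and ischemic injury cells were 0.99, 0.77 and 0.674. Totals scaled by them place both injured sums above the naive sum, so the near equality depends on the scaling. Between ischemic and physical injury no member was past 4-fold, beside 0.185% of 3240 genes higher and 0.432% lower.

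In Tbx18 cluster 5 the naive library had only 5 cells, so injury was compared between 10 ischemic and 116 physical injury cells. No member was past 4-fold, beside 2.04% of 4850 genes higher and 3.44% lower, and the log2 ratio of the summed level was 0.03 (-0.09 to 0.14). Dcn was at 0.15 (0.01 to 0.28), and with TMM scaling, which shifted the median of all genes by -0.30, at -0.15. Prelp, at -0.94 (-1.69 to -0.28), was the only member tested whose interval lay wholly below 0, with 19 UMIs in the ischemic injury cells.

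Other genes that build, bind, cut or sense these proteoglycans were taken as lists chosen for their roles. Of 22 genes of chondroitin and dermatan sulfate chain synthesis, 6 reached 50 CPM against Tbx18 cluster 4, and the sulfotransferases Chst11 (141 against 30.5 CPM) and Chst15 (71.4 against 11.1 CPM) were at least 4-fold higher in Tbx18 cluster 5, beside 11.6% of all genes. In the contrast with NG2 cluster 8 they were Chst11 (141 against 19.4 CPM) and the uronyl sulfotransferase Ust (170 against 6.05 CPM), again of 6 tested, beside 9.01% of all genes. With so few genes tested, these counts are descriptions of the genes named. The epimerase Dse, which makes dermatan sulfate, was at 154 CPM in cluster 5, 52.0 CPM in Tbx18 cluster 4 and 54.7 CPM in NG2 cluster 8. Of the 5 listed keratan sulfate genes, 0 reached 50 CPM against Tbx18 cluster 4, and only Chst2 (41.8 against 103 CPM) did against NG2 cluster 8.

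Of the partner collagens, 1 of 9 tested genes, Col12a1, was at least 4-fold higher in Tbx18 cluster 5 than in Tbx18 cluster 4 (716 against 146 CPM), a share close to the 11.6% of all genes. Against NG2 cluster 8, 6 of 9 were, beside 9.01% of all genes, among them Col1a1 (1164 against 3.53 CPM), Col12a1 (716 against 4.03 CPM), Col6a1 (122 against 3.53 CPM) and Col6a3 (75.5 against 9.08 CPM). Median log2 ratios over the 10 listed collagens were 0.87 and 2.37, beside 0.55 and 0.07 over all genes tested. NG2 cluster 8 thus had Dcn at 297 CPM with Col1a1 nearly absent, but with Col3a1 at 259, Col1a2 at 234 and Col5a2 at 128 CPM. Tbx18 cluster 4 had both Dcn and Col1a1, with Col1a1 at 729 CPM, or 456 CPM without the Lum-rich cell.

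**Figure D5:**
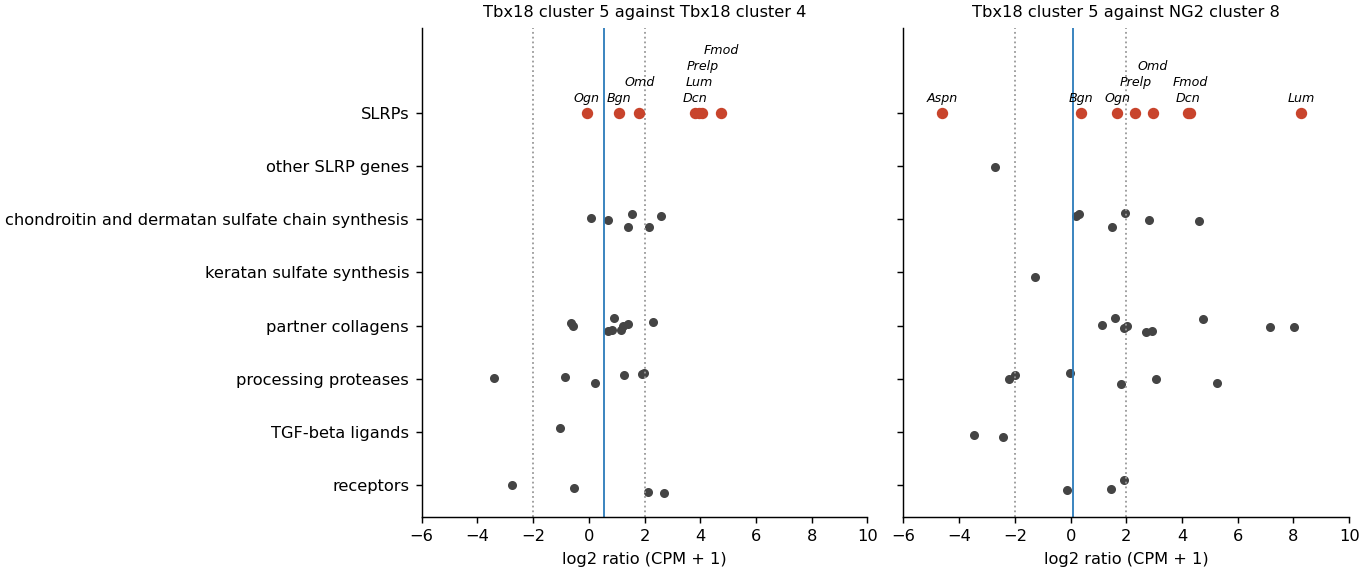
Log2 ratio (horizontal axis) of each tested gene of the family and of the lists of chain synthesis, collagen, protease, TGF-beta and receptor genes, for Tbx18 cluster 5 against Tbx18 cluster 4 (left) and against NG2 cluster 8 (right). The blue line is the median of all genes tested (0.55 and 0.07) and the dotted lines mark 4-fold; Aspn is absent on the left because it was under 50 CPM.

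Of the proteases that process collagen or cut these proteoglycans, Tll1, a protease of the Bmp1 group that removes propeptides, was lower in Tbx18 cluster 5 than in Tbx18 cluster 4 (7.14 against 84.9 CPM), and 0 of 6 tested were at least 4-fold higher (7.62% and 11.6% of all genes). Against NG2 cluster 8, the aggrecanase Adamts5 (112 against 12.6 CPM) and the gelatinase Mmp2 (56.1 against 0.504 CPM) were higher and Adamts4 (25.5 against 122 CPM) was lower, of 6 tested (9.01% and 6.31% of all genes were higher and lower). Of the ligands that decorin and biglycan bind, Tgfb1 and Tgfb2 were lower in Tbx18 cluster 5 than in NG2 cluster 8, at 27.5 against 152 CPM and 13.3 against 156 CPM. Of the receptors, Igf1r (382 against 58.3 CPM) and Lrp1 (616 against 142 CPM) were higher and Egfr (22.4 against 157 CPM) was lower in cluster 5 than in Tbx18 cluster 4, of 4 tested (11.6% and 7.62% of all genes). For NG2 cluster 8, 0 of 3 tested receptors were past 4-fold.

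Of 10 other genes of the wider family, 8 were listed in the Tbx18 and 7 in the NG2 table. Only Ecm2, the neighbor of Aspn 11.7 kb upstream on chromosome 13, reached 50 CPM in Tbx18 cluster 5 or NG2 cluster 8. Like Aspn it was lower in Tbx18 cluster 5, at 28.6 against 195 CPM in NG2 cluster 8, and in Tbx18 cluster 4 it was at 27.7 CPM. Epyc, a class III gene near Lum that was picked out after its values were seen, had 131 UMIs in Tbx18 cluster 4 (30.3 CPM), all from the injured libraries, and 0 in Tbx18 cluster 5.

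Over 47 combinations of cluster and library with at least 20 cells, the genes whose log2 levels were most like those of Dcn were Scube1 (Pearson r = 0.85), Gxylt2, Prrx2, Kdelr2 and Fhl2. For Bgn they included Foxd1 (r = 0.98), Zic1, Zic4 and Tbx18, and for Omd they were Ogn (r = 0.82), Calhm5, Pgrmc1, Fzd2 and Twist1. Among the members, Bgn and Prelp (r = 0.93), Aspn and Prelp (r = 0.91) and Ogn and Prelp (r = 0.91) were most alike, Dcn and Lum had r = 0.63 and Lum and Aspn had r = -0.16. Of Tbx18 cluster 5, only the 116 physical injury cells reached the minimum of 20 cells, so the correlations mostly describe other clusters. These points share libraries, depth and clusters and are no independent samples, so the correlations are descriptions.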

How the data were processed

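The deposited UMI counts, 1 value for each gene in each cell, were made by the authors with Cell Ranger (7.0.0 in the submitters' processing notes) on mm10, the UCSC name of GRCm38, from 10x Genomics 3′ v3 libraries. Per the methods, the authors had removed cells with under 200 genes, over 12% mitochondrial transcripts, or gene and UMI numbers more than 2 SD from the mean. The deposited percent of mitochondrial transcripts was used here only to apply these filters again. Cluster numbers are the authors', from Seurat objects integrated per line. The naive table holds the same cells as the naive libraries of the line tables, so values come from the latter. All columns were mapped, leaving 0 unused.

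Counts were summed per cluster and library and scaled by all UMIs of those cells (686 to 4306 cells per library). Ratios of 2 counts have exact conditional binomial intervals at 95%, without pseudocount. A gene was tested where the higher side had at least 50 CPM and called where log2((CPM + 1)/(CPM + 1)) reached 2 in size. A level of 0 is bounded by 3 counts per library. Shares were recomputed on cells thinned to 1000 UMIs. Doublets were not called. An alternative left out the 5% of cells with the most UMIs. With 1 library per group no test was made. The call rule was run on simulated Poisson counts with planted changes larger than 4-fold. Changes near 4-fold and the spread between cells were not simulated.

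The text names the 8 members, the list genes with the largest ratios past 4-fold, Ecm2 by its level, and the 5 genes most correlated with Dcn, Bgn and Omd, of which 1 is not reported here. Members and lists were chosen with earlier results of these data known. Upstream sequences come from RefSeq GRCm38.p6, which had rows for 6 of the 8 members. TMM factors came from edgeR 4.0.16 in R 4.3.3, figures from matplotlib 3.10.9, and the rest from scipy 1.17.1, numpy 2.4.6 and pandas 2.3.3 under Python 3.11.15.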

Additional observations from a re-analysis of the deposited data

Results flagged for a closer look

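Ogn and Omd had point ratios to naive of opposite sign in the 2 clusters compared with their naive library, and the difference was not tested. In NG2 cluster 8 the log2 ratio of Ogn to naive was -1.14 (-1.56 to -0.74) after physical and -2.94 (-3.37 to -2.53) after ischemic injury, whereas in Tbx18 cluster 4 it was 1.69 (1.13 to 2.30) and 1.16 (0.58 to 1.78). For Omd the log2 ratios were -4.21 (-9.59 to -1.55) and -2.21 (-3.36 to -1.10) in NG2 cluster 8 and 0.63 (-0.80 to 2.55) and 0.16 (-1.42 to 2.17) in Tbx18 cluster 4. The first of these Omd values rests on 1 UMI after physical injury against 18 in naive cells, and the naive cells of Tbx18 cluster 4 had 4 Omd UMIs. Both Omd intervals in Tbx18 cluster 4 include no difference, so no direction is shown for Omd there. Pericyte transcripts were abundant in the naive cells of Tbx18 cluster 4 and scarce after injury. Cell identity and injury thus cannot be told apart in its ratios. The ratios of a cluster share its naive library.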

How the results depend on the processing

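No paired analysis was possible because each group had 1 library and no result came from a test. The log2 ratio of the summed level of Tbx18 cluster 5 to Tbx18 cluster 4, 2.82 as reported, was 2.44 with TMM factors, 2.68 with the methods' filters applied again, 2.63 without the 5% of cells with the most UMIs, 2.75 as a mean over cells and 2.68 in thinned cells. It was 2.74 in injured libraries with myeloid-marked cells left out, a setting chosen after seeing the data. Leaving out each library in turn gave 2.71 to 2.84. Against NG2 cluster 8, 2.59 as reported, it was 2.38 with TMM factors, 2.44 as a mean over cells and 2.44 in thinned cells, with 2.36 to 2.71 when each library was left out. Ischemic against physical injury, it was -0.30 in thinned cells of NG2 cluster 8 (-0.14 as reported), and in Tbx18 cluster 5 (0.03 as reported) -0.27 with TMM factors, 0.17 as a mean over cells and 0.17 in thinned cells. The cause of these differences was not tested.

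Of 30 recomputed ratios of the summed level, 13 stayed within the counting interval of the reported value and 17 moved beyond it, none reversing. The counts of members at least 4-fold higher stayed within 1.5 times the reported 4 and 5 in 30 of 30 recomputed values. Of 329 recomputed ratios of single members, 270 moved by less than the counting interval, 58 by more, and 1 reversed. Of 72 shares of cells with a UMI, 54 moved beyond their interval when cells were thinned. Without the cell richest in the gene, Lum in Tbx18 cluster 4, ischemic against physical injury, was 0.25 in place of 1.19. The reversed value was that of Dcn in Tbx18 cluster 5, ischemic against physical injury, at -0.15 with TMM factors. With TMM, of the genes past 4-fold, those higher made up 46.5% in place of 60.4% (Tbx18 cluster 5 against 4), 51.3% in place of 35.5% (NG2 cluster 8, ischemic against naive), 46.4% and 46.5% in place of 33.2% and 25.2% (Tbx18 cluster 4, physical and ischemic against naive) and 21.3% in place of 37.2% (Tbx18 cluster 5, ischemic against physical). Levels in naive Tbx18 cluster 5 rest on 5 cells and cannot show differences under about the width of their intervals.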
